A study of Mus musculus with 8 samples.

Results

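The nuclear genome encodes most subunits of the oxidative phosphorylation system, and their transcripts were followed in the prefrontal cortex of wild-type and Shank3-deficient mice. Members were taken by symbol: Nduf plus one of the letters a, b, c, s or v and a number, Sdha to Sdhd, and symbols starting with Uqcr, with Cox4 to Cox8 or with Atp5. This gave 83 of the 24420 genes counted, of which 36 were read as complex I, 4 as complex II, 8 as complex III, 18 as complex IV and 17 as complex V. Of the 83, 78 had enough reads to be tested and 5 did not (Ndufs5, Cox6b2, Cox7b2, Cox8b and Cox8c). Subunits encoded by the mitochondrial genome were not analysed here.

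The young male mice formed 3 groups, here called romidepsin, saline and wild type. The romidepsin group, with 2 libraries, were heterozygous Shank3+/ΔC mice, which carry a deletion of exon 21 at the C-terminal end of 1 copy of Shank3, a scaffold protein of excitatory synapses, and which received the histone deacetylase inhibitor romidepsin at 0.25 mg/kg into the peritoneum on 3 successive days. The saline group, with 3 libraries, had the same genotype and received saline. The wild-type group, with 3 libraries, were littermates without the deletion, for which no treatment is named. Mice were 5 to 6 weeks old per the sample labels, whereas the series' design text gives 5 to 8 weeks, and the tissue was collected 1 day later than the final dose. The deletion is constitutive, so every cell type of the tissue carried it. No label ties a library to a single animal, so the p-values below measure the spread between libraries, which may be technical.

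Oxidative phosphorylation turns the energy of food molecules into ATP at the inner mitochondrial membrane. Complexes I and II pass electrons from NADH and succinate to coenzyme Q, complex III passes them on to cytochrome c, and complex IV gives them to oxygen. Complexes I, III and IV pump protons as they do so, and complex V, the ATP synthase, uses the proton gradient to make ATP. Neurons depend on this route for most of the ATP that restores ion gradients after synaptic activity, and cortical cells of all kinds contain it.

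Each library held between 7783538 and 15156318 counts on genes, and the 83 members took 0.919% to 0.999% of them. Counts of the whole Shank3 gene were 315 and 313 CPM (the gene's count scaled to a common library total) in the romidepsin libraries, 316, 252 and 301 CPM in the saline libraries and 299, 308 and 348 CPM in the wild-type libraries. These counts are not split by exon and check neither the genotype nor the labels. The samples are labelled as neurons from cortical slices, yet markers of other cells were present in all 8 libraries. The astrocyte water channel Aqp4 ranged from 123 to 205 CPM, the myelin gene Mbp from 1202 to 2442 CPM, the microglial receptor Cx3cr1 from 57.8 to 75.6 CPM and the endothelial receptor Flt1 from 31.9 to 69.4 CPM.

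The members were among the most abundant transcripts of the tissue. Levels are compared between genes as CPM per kilobase of exon, averaged over the 8 libraries. The median of the 78 tested members was 100.4 CPM per kilobase, against 7.87 CPM per kilobase for all tested genes, and 67 of the 78 (85.9%) were in the top 10% of tested genes. By complex the medians were 76.1 CPM per kilobase for complex I, 78.5 for complex II, 114 for complex III, 170 for complex IV and 144 for complex V. The complexes overlapped widely, since the range ran from 27.1 to 289 CPM per kilobase within complex I and from 9.63 to 534 within complex V.

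**Figure D1:**
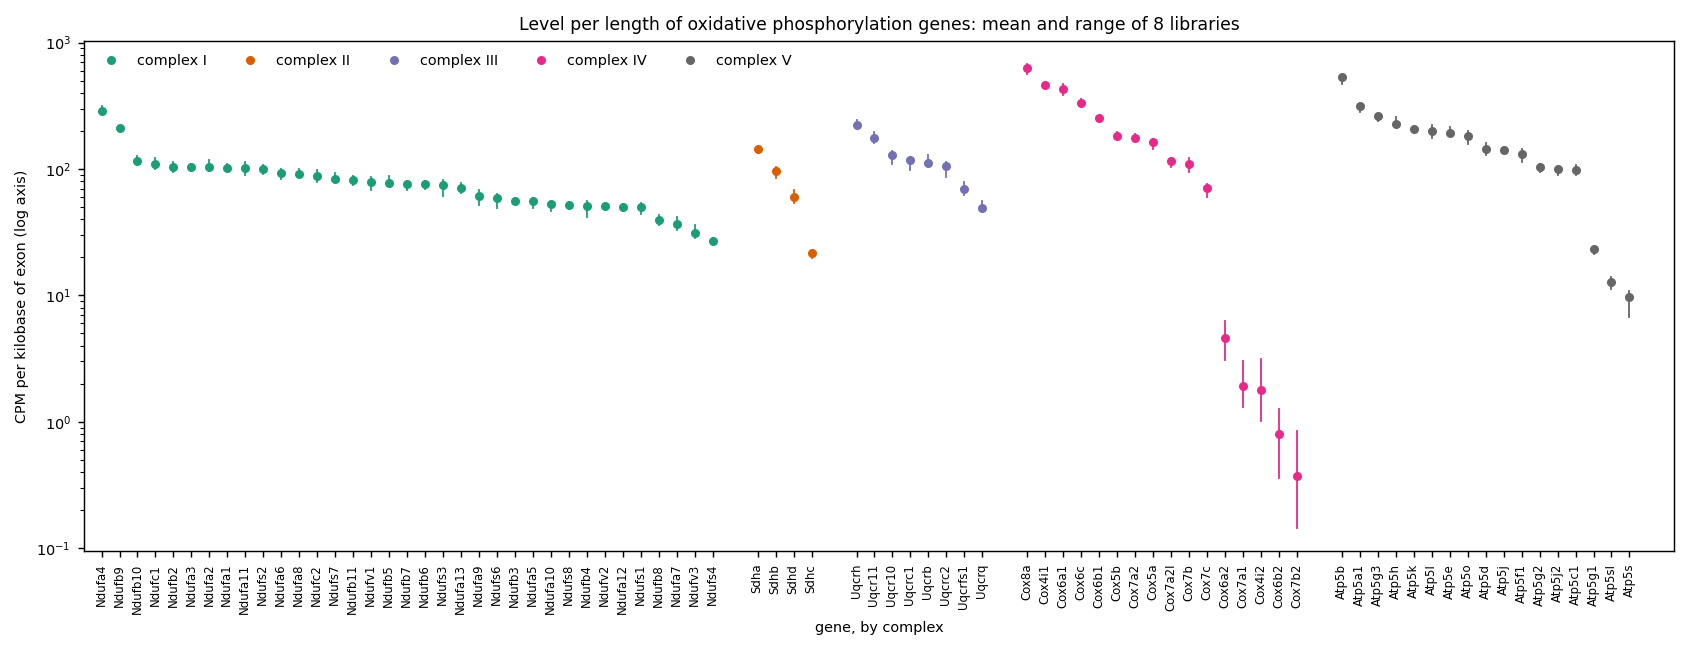
Level of 80 members with a read in all 8 libraries, by complex, in CPM per kilobase of exon on a log axis; points are means of 8 libraries and vertical lines run from the lowest to the highest library. Most members lie between about the level of Ndufs4 and that of Cox8a, and the tissue-restricted subunits of complex IV lie far below.

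Complex IV held the highest and the lowest tested members. Cox8a, the smallest structural subunit, averaged 627 CPM per kilobase, with 561 in the lowest and 678 in the highest library. Cox4i1, the common form of a subunit that binds ATP, averaged 464 CPM per kilobase. In complex V the catalytic subunit beta, Atp5b, averaged 534 CPM per kilobase and its partner alpha, Atp5a1, 316. The highest member read as complex I was Ndufa4 at 289 CPM per kilobase, a protein first assigned to complex I and later found in complex IV. Ndufb9, an accessory subunit of the membrane arm, followed at 211, and Ndufs4, an accessory subunit whose loss causes Leigh-like disease in mice, was the lowest tested at 27.1. In complex III the hinge protein Uqcrh averaged 224 CPM per kilobase, Uqcr11 177 and Uqcrq 49.2. In complex II the flavoprotein Sdha averaged 144 CPM per kilobase, the iron-sulfur subunit Sdhb 96.4, and the membrane anchors Sdhd and Sdhc 60.5 and 21.7.

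Several complex IV subunits have a common form and a form restricted to certain tissues, and the common form dominated in all 8 libraries. Shares are of the summed CPM per kilobase of each family. Cox4i1 took 99.3% to 99.8% against Cox4i2, the form known from lung and hypoxic tissue. Cox6a1 took 98.6% to 99.2% against Cox6a2, the heart and skeletal muscle form. Cox7a2 took 98.4% to 99.2% against Cox7a1, also a muscle form. Cox6b1 took 99.5% to 99.9% against the testis form Cox6b2, and Cox7b took 99.2% to 99.9% against Cox7b2. Cox8a took at least 99.9% in every library, since the muscle form Cox8b had 3 reads over all 8 libraries and the testis form Cox8c had 0. A count of 0 among 90367061 allows up to 0.0332 CPM for Cox8c, for counting error only.

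The 3 genes for the c-ring of complex V, whose mature proteins are the same, were all present. Atp5g3 held 67.5% of their summed CPM per kilobase at the median library, Atp5g2 26.5% and Atp5g1 5.99%. The order of the last pair depends on the length used, because the exons of Atp5g1 sum to 4778 bases over its transcripts. With the shortest transcript of each gene over the pooled libraries the shares were 47.9% for Atp5g3, 33.6% for Atp5g1 and 18.6% for Atp5g2.

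Some low-abundance forms are known from few cell types, and 2 of them are set beside markers of such cells. Reads were few, with 20 to 45 a library for Cox6a2 and 7 to 23 for Cox4i2, so their values carry a large counting error. Cox6a2, which in mouse cortex is known from parvalbumin interneurons, had 2.96 and 2.88 CPM in the romidepsin libraries, 2.49, 2.1 and 4.23 CPM in the saline libraries and 3.54, 3.31 and 3.53 CPM in the wild-type libraries. The lowest pair, saline replicates 1 and 2, also had the lowest Pvalb, the parvalbumin gene, at 25.7 and 22.8 CPM, whereas saline replicate 3 had 39.6 CPM. Pvalb was at 38.5 and 40.0 CPM in the romidepsin libraries and at 36.6, 41.9 and 31.4 CPM in the wild-type libraries. The summed level of 4 parvalbumin interneuron markers, Cox6a2 left out, was 399 to 417 CPM in the romidepsin libraries, 301 to 373 CPM in the saline libraries and 370 to 391 CPM in the wild-type libraries, with none at 0. The romidepsin libraries thus had the highest sums, while their Cox6a2 was below all wild-type libraries. Cox4i2, known from pericytes and smooth muscle in brain, had 2.27 and 1.03 CPM in the romidepsin libraries, 1.31, 0.733 and 1.15 CPM in the saline libraries and 1.43, 1.36 and 1.10 CPM in the wild-type libraries. Its highest library, romidepsin replicate 1, also had the most Acta2, the smooth muscle actin, at 17.3 CPM against 3.29 CPM in romidepsin replicate 2 and 5.64 to 12.6 CPM in the other 6. The summed level of 8 pericyte and smooth muscle markers was 205 and 164 CPM in the romidepsin libraries, 180, 135 and 144 CPM in the saline libraries and 149, 158 and 192 CPM in the wild-type libraries, with none at 0. Saline replicate 1 had a higher sum than wild-type replicate 1 but less Cox4i2. The part of these markers in the values of the 2 subunits was not tested.

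**Figure D2:**
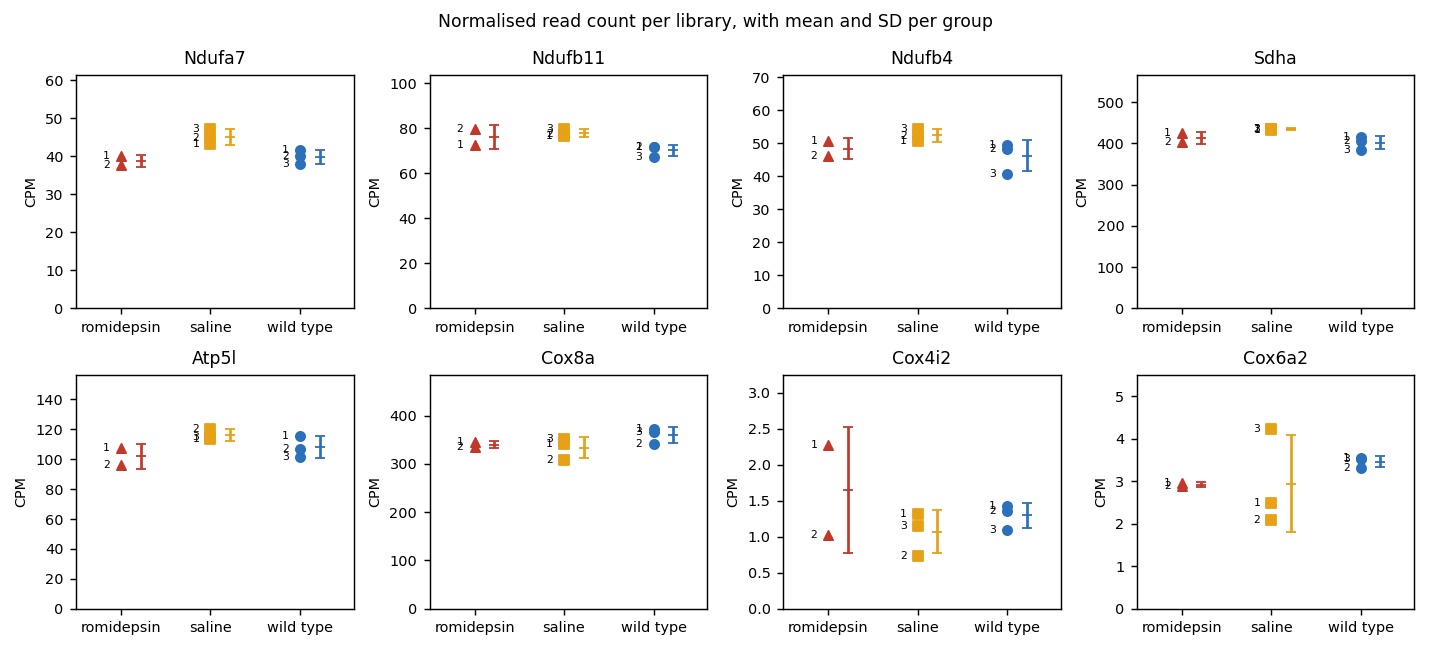
Normalised read count (CPM) of 8 members in each library, romidepsin left, saline in the middle and wild type right, with replicate numbers beside the points and the mean and SD of each group beside them. The saline libraries lie above all wild-type libraries for Ndufa7, Ndufb11, Ndufb4 and Sdha, and the points of Cox8a, Cox4i2 and Cox6a2 overlap between saline and wild type. The 8 panels do not stand for all members: of the 78 tested, 5 were higher in the saline group without overlap, where 6.26% of all tested genes were.

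Saline-treated Shank3-deficient mice were set against wild type to ask how these transcripts differ in mice with the deletion. Since no injection is named for wild type, genotype and injection cannot be told apart here. No member passed the test in edgeR (quasi-likelihood F test, Benjamini-Hochberg adjusted p under 0.05 over all 14809 genes tested), where 0.00675% of all tested genes did, and the smallest adjusted p of a member was 0.599. At an unadjusted p under 0.05 there was also no member, against 8.39% of all tested genes. Small differences in 1 direction were common among them: 57 of 78 members were higher in the saline group, against 51.3% of all tested genes, with a median log2 fold change of 0.05, against 0.0047 for all tested genes. The groups did not overlap for 5 members, all higher in the saline group, where 6.26% of all tested genes were higher without overlap and 6.36% lower. The 95% interval of the fold lay inside 0.8 to 1.25 for 71 of 78 members (91.0%), against 37.4% of all tested genes. Most members are more abundant than most tested genes, and no set of like level was compared. In these bulk samples fewer cells of a type and less RNA per cell cannot be told apart. Without wild-type replicate 3, 40 of 78 members were higher in the saline group, at a median of 0.0012, with 17 of 35 in complex I, 2 of 4 in complex II and 4 of 8 in complex III.

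Of 35 tested complex I members, 25 were higher in the saline group, with a median log2 fold change of 0.05. Ndufa7, an accessory subunit, had 43.2, 44.8 and 47.3 CPM in the saline libraries against 41.6, 40.0 and 38.0 CPM in the wild-type libraries. These values did not overlap, and the log2 fold change was 0.18 ± 0.08 (SE), with an interval of the fold of 0.997 to 1.28 and an adjusted p of 0.599 by edgeR. Ndufb11, an accessory subunit of the membrane arm encoded on the X chromosome, had 76.5, 77.5 and 79.9 CPM in the saline libraries against 71.7, 71.7 and 67.4 CPM in the wild-type libraries, a log2 fold change of 0.15. Ndufb4 had 50.7, 52.2 and 54.5 CPM in the saline libraries against 49.5, 48.4 and 40.8 CPM in the wild-type libraries, where replicate 3 stood lowest. The core subunit Ndufs1, at the entry of electrons from NADH, averaged 139 ± 6.32 CPM in the saline group and 125 ± 7.70 CPM in wild type (SD, n = 3 each), and the groups overlapped.

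All 4 complex II genes were higher in the saline group, by a median log2 fold change of 0.04. Sdha, the subunit that oxidises succinate, had 432, 434 and 436 CPM in the saline libraries against 414, 406 and 385 CPM in the wild-type libraries, a fold of 1.08 with an interval of 0.974 to 1.20. Sdhc had 71.4, 70.5 and 69.8 CPM in the saline libraries against 69.3, 66.9 and 69.0 CPM in the wild-type libraries, so that the groups were separate by less than 1 CPM. Sdhd and Sdhb differed by folds of 1.03 and 1.02, and their groups overlapped.

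Of the 8 complex III genes 7 were higher in the saline group, with a median log2 fold change of 0.08, and the groups overlapped for all 8. The Rieske iron-sulfur protein Uqcrfs1 had 93.2, 108 and 98.4 CPM in the saline libraries against 100.5, 88.3 and 84.2 CPM in the wild-type libraries. Uqcrq, a small subunit that helps bind coenzyme Q, averaged 77.1 ± 8.05 CPM in the saline group and 70.8 ± 1.61 CPM in wild type (SD, n = 3 each). In complex V 14 of 17 genes were higher, at a median of 0.06. Without wild-type replicate 3 the medians were 0.02 in complex III and 0.03 in complex V, and without wild-type replicate 1 that of complex V was 0.10. Its stalk protein Atp5o averaged 159 ± 6.86 CPM in the saline group and 145 ± 13.4 CPM in wild type, and Atp5sl, which despite its symbol is known in human cells as a factor for the assembly of complex I, averaged 29.4 ± 1.87 CPM in the saline group and 32.7 ± 2.07 CPM in wild type.

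Complex IV was evenly split, with 7 of 14 tested genes higher in the saline group and a median log2 fold change of 0.0068. Cox8a had 342, 308 and 351 CPM in the saline libraries against 373, 342 and 366 CPM in the wild-type libraries, a log2 fold change of -0.11 ± 0.08 (SE). Cox7a2l, a protein that joins complexes III and IV, averaged 135 ± 4.05 CPM in the saline group and 126 ± 9.29 CPM in wild type. Neither gene was free of overlap between the groups. The median turned to -0.02 without wild-type replicate 3 and to -0.04 without wild-type replicate 2. Leaving out saline replicate 2 gave -0.02, and leaving out saline replicate 3 gave -0.0048. It was higher, at 0.04, without wild-type replicate 1 and, at 0.05, with no filter on low counts. The difference between the complexes was not tested.

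**Figure D3:**
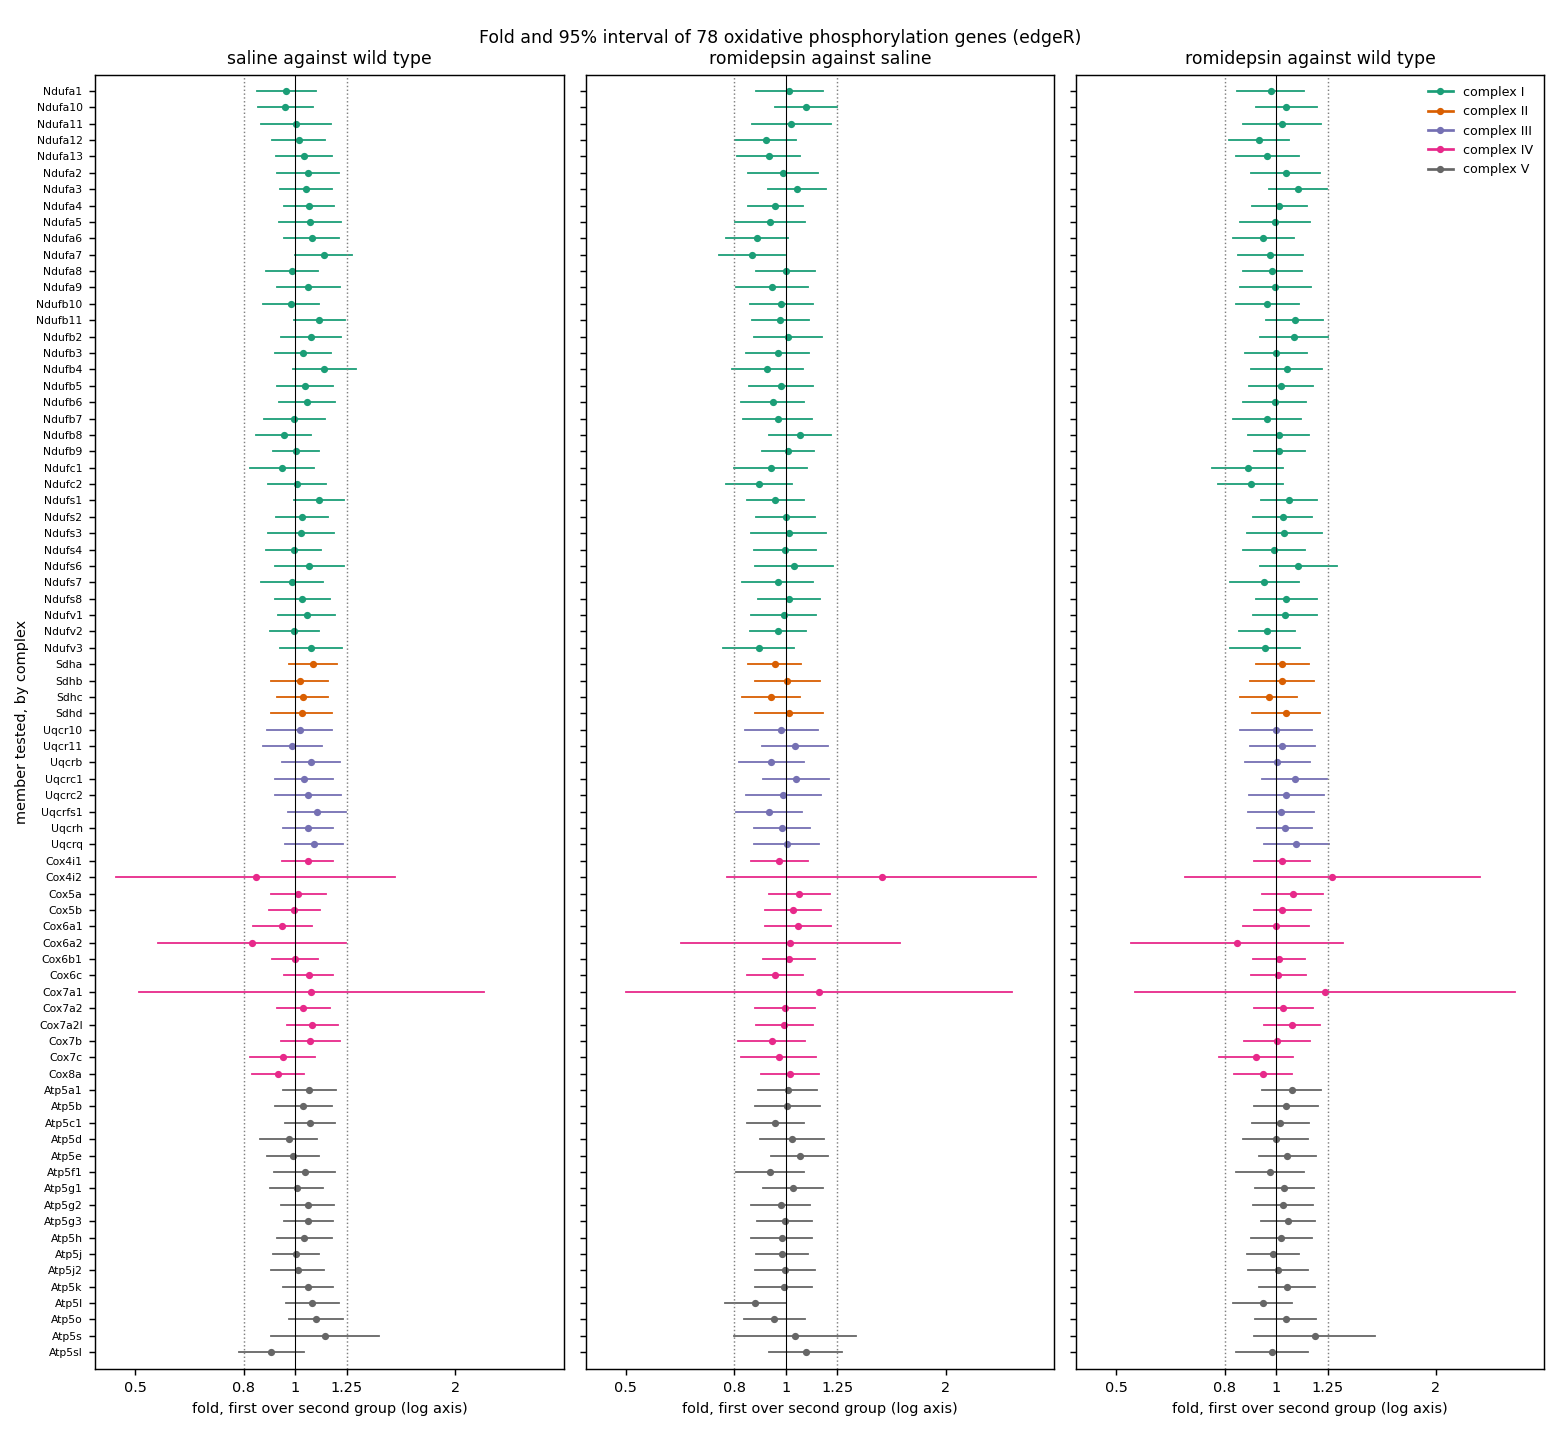
Fold of each tested member with its 95% interval from edgeR, on a log axis, for saline over wild type (left), romidepsin over saline (middle) and romidepsin over wild type (right), coloured by complex. Dotted lines mark folds of 0.8 and 1.25, and the intervals of 71, 67 and 68 of the 78 members lie inside them in the 3 comparisons, with Cox4i2, Cox6a2 and Cox7a1 the widest.

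Romidepsin-treated mice were set against saline-treated mice of the same genotype to ask what the drug changes. No member passed in edgeR, as no gene of all tested did (0% called, with 3.26% of all tested genes at an unadjusted p under 0.05), and the adjusted p of all members was 1.00. Of 78 members 30 were higher in the romidepsin group, where 49% of all tested genes were, and the median log2 fold change was -0.01, against -0.0029 for all tested genes. The groups did not overlap for 18 members, of which 4 were higher in the romidepsin group and 14 lower, where 10.8% of all tested genes were higher without overlap and 10.2% lower. The interval of the fold lay inside 0.8 to 1.25 for 67 of 78 members (85.9%), against 32.6% of all tested genes. This comparison and the one before share the saline libraries, so a low or high saline library moves both in opposite directions.

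At an unadjusted p under 0.05 there were 2 members, both lower in the romidepsin group, as were 1.53% of all tested genes. The count was 0 when wild-type replicate 2, romidepsin replicate 2 or either of saline replicates 2 and 3 was left out, and also 0 with DESeq2 or with no filter on low counts. Ndufa7 had 40.0 and 37.8 CPM in the romidepsin libraries against 43.2, 44.8 and 47.3 CPM in the saline libraries, a fold of 0.863 with an interval of 0.749 to 0.996 and an adjusted p of 1.00 by edgeR. The wild-type libraries ran from 38.0 to 41.6 CPM, and 1 of the 2 romidepsin values lay inside that range. Atp5l, the small membrane subunit g of complex V, had 108 and 96.1 CPM in the romidepsin libraries against 113, 120 and 115 CPM in the saline libraries, a fold of 0.877 with an interval of 0.770 to 0.999. Of the 50-base stretches of Atp5l, 84.8% also occur in another annotated gene, in most cases a processed pseudogene, so its counts may lack reads that fit both.

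Complex I leaned lower in the romidepsin group, with 10 of 35 genes higher, a median log2 fold change of -0.03 and 9 of its 11 genes without overlap lower, where 10.2% of all tested genes were lower without overlap. The median was -0.07 without saline replicate 1. Ndufa6 had 52.0 and 49.4 CPM in the romidepsin libraries against 54.4, 59.0 and 59.4 CPM in the saline libraries. Ndufc2, an accessory subunit of the membrane arm, had 56.4 and 53.6 CPM in the romidepsin libraries against 57.6, 67.6 and 60.4 CPM in the saline libraries. The 7 core subunits had a median log2 fold change of -0.01, with 2 higher, and the other 28 tested complex I members -0.04, with 8 higher.

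In complex II, 2 of 4 genes were higher in the romidepsin group, 0 of 4 without saline replicate 1 and 1 of 4 without saline replicate 3 or romidepsin replicate 2. Sdha had 424 and 402 CPM in the romidepsin libraries, below the 432 to 436 CPM of the saline libraries. Sdhc had 69.6 and 62.9 CPM in the romidepsin libraries, against 69.8 to 71.4 CPM in the saline libraries, so that 1 romidepsin library was close to the saline range. In complex III, 3 of 8 genes were higher and no gene was without overlap. Uqcrfs1 had 93.7 and 92.1 CPM in the romidepsin libraries against 93.2, 108 and 98.4 CPM in the saline libraries. Uqcrb averaged 58.0 ± 1.64 CPM in the romidepsin group (SD, n = 2) and 61.8 ± 5.76 CPM in the saline group (SD, n = 3). Of the 8, 5 were higher without saline replicate 3, at a median of 0.02, and 2 without romidepsin replicate 2.

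Of 14 complex IV genes 8 were higher in the romidepsin group, with a median log2 fold change of 0.02. The largest estimate, 0.60 ± 0.45 (SE) for Cox4i2, came from 1 library: without romidepsin replicate 1 it was -0.077. Without that library 4 of 14 complex IV genes were higher, at a median of -0.04. Cox5a, a subunit on the matrix side, had 109 and 111 CPM in the romidepsin libraries against 96.8, 109 and 106 CPM in the saline libraries. Of 17 complex V genes 7 were higher, at a median of -0.0052, which turned to 0.03 without romidepsin replicate 2. It was also above 0 with saline replicate 3 left out (0.0087) or saline replicate 2 left out (0.0010). All 4 of the peripheral stalk were lower, at a median log2 fold change of -0.05. The 5 genes of the F1 part (Atp5a1, Atp5b, Atp5c1, Atp5d and Atp5e) had a median of 0.01. The difference between the 2 sets was not tested. Atp5sl had 31.5 and 32.7 CPM in the romidepsin libraries against 31.2, 27.5 and 29.5 CPM in the saline libraries.

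Romidepsin-treated Shank3-deficient mice were also set against wild type. Genotype, drug and injection cannot be told apart in this comparison, since no treatment is named for wild type. No member passed in edgeR, where 0.00675% of all tested genes did, none was at an unadjusted p under 0.05, against 3.24% of all tested genes, and the adjusted p of the members with the smallest p was 0.999. Of 78 members 50 were higher in the romidepsin group, where 50% of all tested genes were, with a median log2 fold change of 0.03, and 68 (87.2%) had an interval of the fold inside 0.8 to 1.25, against 34.9% of all tested genes. The groups did not overlap for 9 members, of which 5 were higher and 4 lower, where 9.34% and 9.08% of all tested genes were. Without wild-type replicate 3, 31 of 78 members were higher, at a median of -0.02.

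All 8 complex III genes were higher in the romidepsin group, at a median log2 fold change of 0.05, but 4 of 8 without wild-type replicate 3. Uqcrq had 75.1 and 79.4 CPM in the romidepsin libraries against 72.4, 70.8 and 69.1 CPM in the wild-type libraries, and the core protein Uqcrc1 had 206 and 199 CPM in the romidepsin libraries against 206, 191 and 163 CPM in the wild-type libraries. Complex I was evenly split, with 17 of 35 higher, and 11 of 35 without wild-type replicate 3. Ndufc1 had 31.7 and 32.4 CPM in the romidepsin libraries, below the 38.3, 34.2 and 36.4 CPM of the wild-type libraries, a fold of 0.884 with an interval of 0.757 to 1.03. Ndufc2 had 56.4 and 53.6 CPM in the romidepsin libraries against 64.4, 58.7 and 61.1 CPM in the wild-type libraries. Its saline values, 57.6 to 67.6 CPM, overlapped wild type.

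In complex II, 3 of 4 genes were higher in the romidepsin group, and 1 of 4 without wild-type replicate 3. Sdhd averaged 76.0 ± 3.48 CPM in the romidepsin group and 72.9 ± 5.59 CPM in wild type, whereas Sdhc averaged 66.3 ± 4.79 CPM in the romidepsin group and 68.4 ± 1.32 CPM in wild type. In complex IV, 10 of 14 genes were higher, but 5 of 14 without romidepsin replicate 1. Cox7c, a small subunit, had 40.3 and 32.5 CPM in the romidepsin libraries against 38.9 to 41.0 CPM in the wild-type libraries, and its low value came from romidepsin replicate 2 alone. Cox7a2l had 135 and 134 CPM in the romidepsin libraries against 123, 118 and 136 CPM in the wild-type libraries. In complex V, 12 of 17 genes were higher, and 8 of 17 without wild-type replicate 3. Atp5a1 had 815 and 790 CPM in the romidepsin libraries against 809, 748 and 692 CPM in the wild-type libraries, and Atp5s had 15.8 and 15.0 CPM in the romidepsin libraries against 12.9, 16.2 and 9.96 CPM in the wild-type libraries.

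The members varied together from library to library, also within a group. A library score was taken as each member's log2 CPM minus its wild-type mean, averaged over the 78 members. It was 0.05 and -0.01 in the romidepsin libraries, -0.0042, 0.05 and 0.07 in the saline libraries against 0.07, -0.0091 and -0.06 in the wild-type libraries. The wild-type libraries thus held the highest and the lowest score, and the 3 groups overlapped. Of the 78 members, 47 and 33 were above their mean of all libraries in the romidepsin libraries, 27, 57 and 61 in the saline libraries against 62, 24 and 18 in the wild-type libraries. Without wild-type replicate 1, the highest, 66 of 78 members had a higher mean in saline than in wild type, and the median log2 fold change was 0.08. Some gene lists described below had the same order within wild type. From replicate 1 to 3, scores were 0.13, 0.02 and -0.15 for glycolysis and 0.05, 0.01 and -0.06 for mitochondrial ribosomal proteins. Biogenesis regulators, cytosolic ribosomal proteins, coenzyme Q synthesis and complex II assembly factors did not follow it. The share of all tested genes above their mean was not counted.

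Scores of complexes I, II, III and V followed the same order within wild type, with replicate 1 highest and replicate 3 lowest. Complex IV differed: its score was 0.13 and -0.08 in the romidepsin libraries, -0.05, -0.04 and 0.02 in the saline libraries against 0.08, -0.05 and -0.04 in the wild-type libraries. Without the 3 restricted forms Cox4i2, Cox6a2 and Cox7a1, the complex IV score was 0.06 and -0.03 in the romidepsin libraries, -0.02, 0.03 and 0.04 in the saline libraries against 0.06, -0.03 and -0.02 in the wild-type libraries. Leaving these 3 out was decided after their values were seen.

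**Figure D4:**
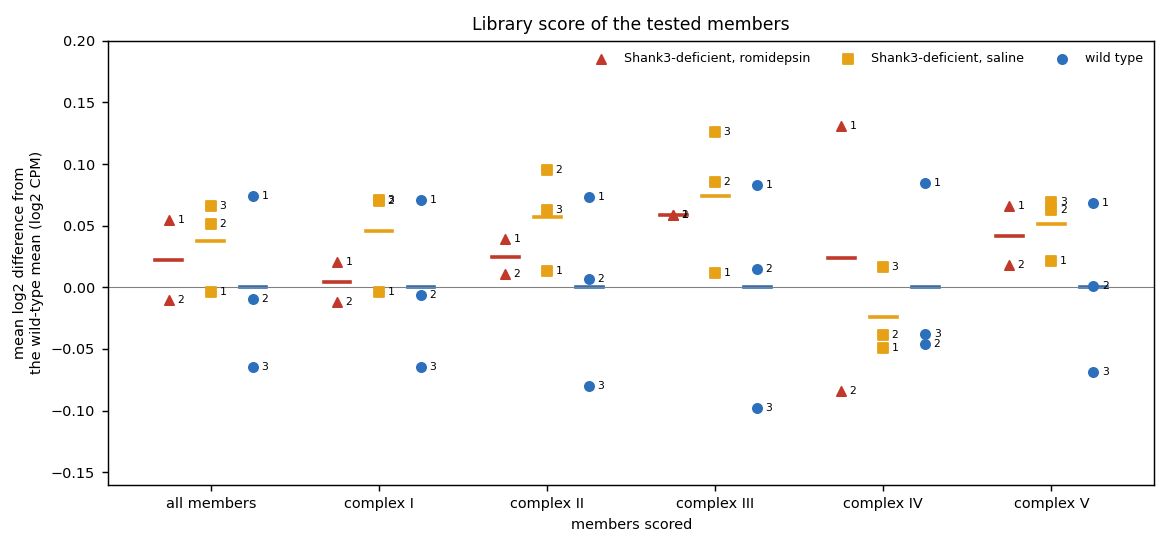
Library score (log2 CPM minus the wild-type mean, averaged over genes) of all 78 tested members and of each complex, romidepsin left, saline in the middle and wild type right; points are libraries with their replicate number and short bars are group means. The wild-type libraries run from -0.06 to 0.07 for all members, a span that contains the scores of the romidepsin and saline libraries.

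Markers of cell types also differed between libraries. The score of 8 excitatory neuron markers was 0.06 and 0.05 in the romidepsin libraries, -0.0095, 0.05 and -0.05 in the saline libraries against 0.10, -0.01 and -0.09 in the wild-type libraries. The score of 7 astrocyte markers was 0.04 and -0.02 in the romidepsin libraries, 0.18, -0.06 and -0.02 in the saline libraries against -0.24, -0.06 and 0.31 in the wild-type libraries, in the reverse order of the members within wild type. Summed, the 7 astrocyte markers ranged from 2395 to 2548 CPM in the romidepsin group, from 2279 to 2731 CPM in the saline group and from 2095 to 2950 CPM in wild type, and the 8 excitatory neuron markers from 7115 to 7229, from 6460 to 6864 and from 6550 to 7113 CPM in the same order of groups. None of these markers was at 0. All 7 endothelial markers were lower in the saline group than in the wild-type group, by a median log2 fold change of -0.49. For 6 of the 7 the groups did not overlap, where 6.36% of all tested genes were lower without overlap. The 10 pericyte and smooth muscle genes, Cox4i2 among them, were split with 5 higher, at a median of -0.11. The summed level of the endothelial markers was 161 to 200.5 CPM in the romidepsin libraries, 127 to 175 CPM in the saline libraries and 189 to 236 CPM in the wild-type libraries. Markers of meningeal fibroblasts (7 of 7, median 0.63) and of the olfactory bulb and septum (6 of 6, median 0.83) were higher in the saline group than in the wild-type group. For 1 of the 7 fibroblast markers the groups did not overlap. These markers summed to 779, 797 and 359 CPM in the saline libraries and 333, 293 and 528 CPM in the wild-type libraries. Of the 5 parvalbumin interneuron genes, Cox6a2 among them, 0 were higher in the saline group (median -0.27). The olfactory bulb and septum markers summed to 24.0 and 25.3 CPM in the romidepsin libraries, 28.8, 67.8 and 65.2 CPM in the saline libraries and 23.8, 18.2 and 46.0 CPM in the wild-type libraries. In romidepsin against saline, 0 of 6 olfactory bulb and septum markers (median -1.24) were higher. The same held for 0 of 7 meningeal fibroblast markers (-0.29) and 0 of 7 oligodendrocyte markers (-0.19). All 10 pericyte and smooth muscle genes (0.31), all 7 endothelial markers (0.27) and all 5 parvalbumin interneuron genes (0.27) were higher in the fit. Among these 5, Cox6a2 averaged 2.92 CPM in the romidepsin group and 2.94 CPM in the saline group. In romidepsin against wild type, 8 of 8 inhibitory neuron markers (0.17), 7 of 7 microglial markers (0.23) and 7 of 7 meningeal fibroblast markers (0.28) were higher. Of the inhibitory neuron markers 6 were without overlap, where 9.34% of all tested genes were higher without overlap. In the same comparison 0 of 7 endothelial markers (-0.26) and 0 of 7 oligodendrocyte markers (-0.29) were higher. No gene of these lists passed in edgeR. The part of cell composition in the members' values was not tested.

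The spread of the members between libraries was small. The median SD of log2 CPM within groups was 0.09 for the 78 members, against 0.15 for all tested genes. Of the members 85.9% were in the top 10% of tested genes by level, and no set of like level was compared. The part of level in the smaller SD, and in the narrower intervals of the fold in the 3 comparisons, was not tested. Among the members the SD was lowest for Ndufb9 at 0.03 and highest for Cox7a1 at 0.46, a gene with 67 reads over all 8 libraries. Members are also shorter than most genes, with a median of 765 bases of exon over the 83, against 3179 for all tested genes with a length. Among all tested genes under 1 kb, 489 of 800 were higher in the saline group than in the wild-type group, with a median log2 fold change of 0.05, and among those of 4 kb or more 2410 of 5190, with a median of -0.01. In romidepsin against saline, 353 of the 800 genes under 1 kb were higher in the romidepsin group, at a median of -0.02. In romidepsin against wild type 440 of the 800 were, at a median of 0.02. The part of length in the members' differences was not tested.

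Genes that build or serve the complexes were read from 13 lists, and none of their members passed in any of the 3 comparisons. Complex I assembly factors had a median log2 fold change of 0.03 in saline against wild type, and Ndufaf4 averaged 30.7 ± 1.11 CPM in the saline group and 34.6 ± 2.31 CPM in wild type, without overlap. Of the complex II assembly factors, Sdhaf1, needed to mature the iron-sulfur subunit, averaged 10.9 ± 0.985 CPM in the saline group and 8.87 ± 0.217 CPM in wild type. Surf1, an assembly factor of complex IV whose loss causes Leigh syndrome in people, had 42.3, 47.3 and 44.8 CPM in the saline libraries against 39.7, 39.4 and 37.5 CPM in the wild-type libraries, a log2 fold change of 0.20 with an unadjusted p of 0.0302 and an adjusted p of 0.533 by edgeR. In the romidepsin libraries Surf1 was at 39.5 and 39.7 CPM. Uqcc3, an assembly factor of complex III, averaged 11.9 ± 0.131 CPM in the romidepsin group and 14.5 ± 1.02 CPM in the saline group.

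The electron carrier cytochrome c (Cycs) and the heme subunit of complex III (Cyc1) fall outside the symbol rule. Cycs averaged 164 ± 5.05 CPM in the romidepsin group, 176 ± 11.7 CPM in the saline group and 163 ± 16.4 CPM in wild type. Cyc1 had 140 and 139 CPM in the romidepsin libraries, 125, 136 and 138 CPM in the saline libraries and 144, 128 and 118 CPM in the wild-type libraries. For both genes wild type held the lowest library. The groups overlapped for Cycs, and for Cyc1 both romidepsin libraries lay above all saline libraries.

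The list of mitochondrial biogenesis regulators leaned against the members. Of its 15 genes 1 was higher in the saline group than in the wild-type group, at a median log2 fold change of -0.13, while 12 of 15 were higher in the romidepsin group than in the saline group, at 0.06. The 2 counts share the saline libraries. Esrra, the estrogen-related receptor that drives many genes of respiration, had 44.8 and 48.1 CPM in the romidepsin libraries, 37.0, 37.6 and 38.5 CPM in the saline libraries and 51.1, 46.5 and 40.5 CPM in the wild-type libraries. Its saline libraries were the lowest of all 8, with a log2 fold change of -0.29 against wild type (adjusted p = 0.417 by edgeR) and of 0.30 in romidepsin against saline (adjusted p = 1.00 by edgeR). The coactivator Ppargc1a, known for its command of mitochondrial genes, had 54.7 and 56.9 CPM in the romidepsin libraries, 51.2, 46.9 and 57.8 CPM in the saline libraries and 53.1, 55.5 and 54.7 CPM in the wild-type libraries. The factor Nrf1 averaged 19.0 ± 1.23 CPM in the romidepsin group (SD, n = 2), 17.4 ± 0.564 CPM in the saline group and 18.1 ± 0.960 CPM in wild type (SD, n = 3 each).

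The remaining lists varied in saline against wild type. Of 18 genes of the tricarboxylic acid cycle and pyruvate dehydrogenase 13 were higher in the saline group, at a median log2 fold change of 0.02, and of 17 glycolysis genes 15 were, also at 0.02. Mitochondrial ribosomal proteins, with 49 of 77 higher, had a median of 0.03, and cytosolic ribosomal proteins, with 73 of 77 higher, 0.08. The list of adenine nucleotide, phosphate and outer membrane carriers, Vdac1, Vdac2 and Vdac3 among them, had 5 of 6 higher (median 0.05). Coenzyme Q synthesis had 6 of 12 (-0.0044). Of the assembly factors, 4 of 4 were higher for complex II (0.15), 2 of 6 for complex III (-0.02) and 14 of 19 for complex IV (0.08). The list of complex V assembly factors and inhibitor had 3 of 6 higher (-0.01). Dld, the shared subunit of several dehydrogenases, averaged 126 ± 9.55 CPM in the saline group and 112 ± 12.3 CPM in wild type, and 109 ± 1.54 CPM in the romidepsin group.

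**Figure D5:**
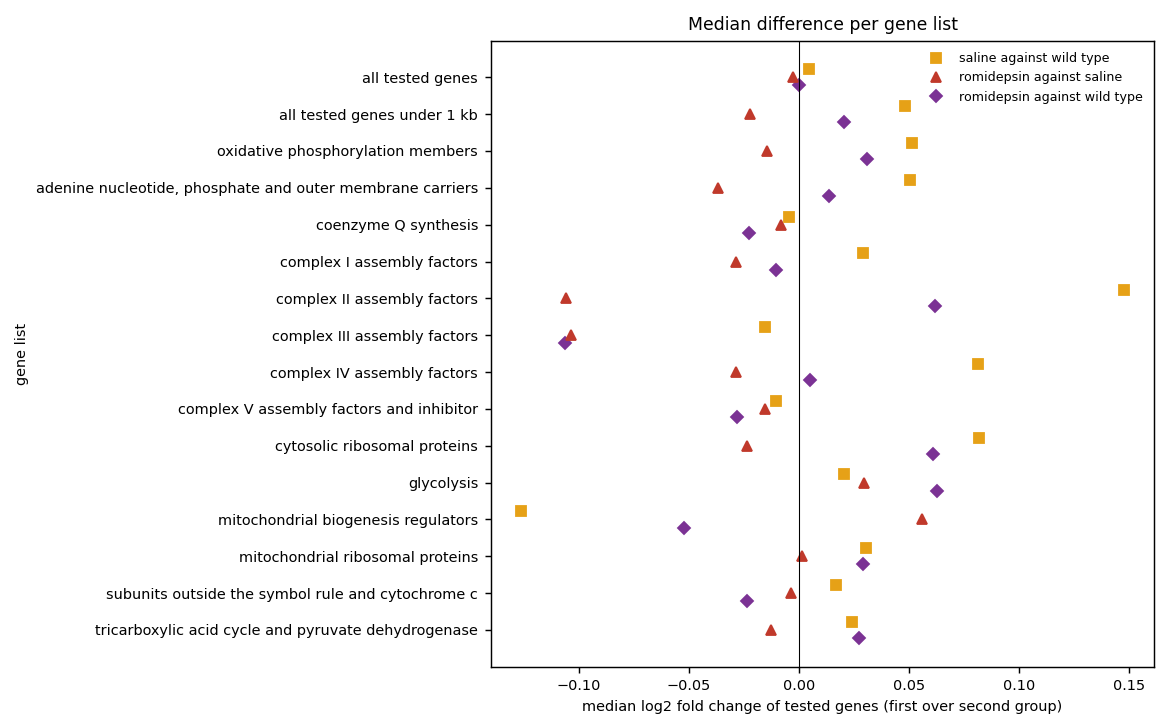
Median log2 fold change of the tested genes in each list, for saline over wild type (squares), romidepsin over saline (triangles) and romidepsin over wild type (diamonds), beside all tested genes and those under 1 kb. The members lie at 0.05, -0.01 and 0.03 in these comparisons, and the biogenesis regulators at -0.13, 0.06 and -0.05.

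Promoters of some members hold motif letters that the symbol rule did not use. Promoter windows of 300 bases, from 250 before to 50 after the annotated start, were read from RefSeq on GRCm38.p6 and matched 69 of the 83 members. All motifs were searched on both strands. The letters of the respiratory factor NRF1, GCGCA followed by any base and GCGC (on the other strand GCGC, any base, TGCGC), were in 17 of the 69 (24.6%), against 5.19% of all 27025 genes with a window. AANATGGC, for YY1, was in 26.1% of members and 6.96% of all genes. CCGGAAG, for ETS factors such as GABP, was in 23.2% and 9.93%, and AAGGTCA, for the estrogen-related receptors, in 11.6% and 5.38%. GGGCGG, for the SP family, was in 40.6% and 38.2%. The 27025 genes were not limited to those tested here, and no set of like level was compared. No motif contains another, though neighbouring matches may share bases, and a match is a string of letters, not a bound site. Tested members with the NRF1 letters had a median of 102 CPM per kilobase (16 genes) and those without 87.8 (49 genes).

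For each complex, the window with the most NRF1 letters (ties by level) is shown because it lets the repeated element be seen, with matches in capitals and 5′ to 3′ on the gene's strand. Ndufb4 lies at chr16:37654319-37654618 on the minus strand, Sdha at chr13:74350191-74350490 on the minus strand, Uqcrc1 at chr9:108936398-108936697 on the plus strand, Cox6a1 at chr5:115348909-115349208 on the minus strand and Atp5g3 at chr2:73911277-73911576 on the minus strand.
Ndufb4: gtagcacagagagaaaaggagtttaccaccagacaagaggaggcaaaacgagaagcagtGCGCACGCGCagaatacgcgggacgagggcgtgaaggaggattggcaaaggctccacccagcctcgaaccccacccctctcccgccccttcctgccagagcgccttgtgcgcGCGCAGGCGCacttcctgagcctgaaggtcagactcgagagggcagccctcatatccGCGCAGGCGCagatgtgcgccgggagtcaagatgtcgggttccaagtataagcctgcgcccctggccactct
Sdha: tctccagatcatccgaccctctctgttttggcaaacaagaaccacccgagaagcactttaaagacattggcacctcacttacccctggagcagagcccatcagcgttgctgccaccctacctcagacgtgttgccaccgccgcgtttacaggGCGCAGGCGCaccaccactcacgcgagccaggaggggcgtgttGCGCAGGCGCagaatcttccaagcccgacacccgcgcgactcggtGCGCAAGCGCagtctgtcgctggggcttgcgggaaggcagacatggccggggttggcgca
Uqcrc1: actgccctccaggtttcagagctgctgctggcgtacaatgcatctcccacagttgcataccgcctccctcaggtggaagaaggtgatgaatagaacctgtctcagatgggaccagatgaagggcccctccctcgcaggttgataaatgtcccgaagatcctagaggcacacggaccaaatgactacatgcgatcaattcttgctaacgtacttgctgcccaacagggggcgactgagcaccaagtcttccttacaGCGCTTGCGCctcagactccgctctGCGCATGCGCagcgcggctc
Cox6a1: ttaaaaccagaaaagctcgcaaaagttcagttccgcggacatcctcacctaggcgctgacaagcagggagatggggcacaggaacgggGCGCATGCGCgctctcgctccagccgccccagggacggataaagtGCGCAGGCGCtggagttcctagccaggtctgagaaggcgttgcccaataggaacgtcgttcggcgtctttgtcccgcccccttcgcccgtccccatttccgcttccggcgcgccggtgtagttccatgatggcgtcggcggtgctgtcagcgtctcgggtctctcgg
Atp5g3: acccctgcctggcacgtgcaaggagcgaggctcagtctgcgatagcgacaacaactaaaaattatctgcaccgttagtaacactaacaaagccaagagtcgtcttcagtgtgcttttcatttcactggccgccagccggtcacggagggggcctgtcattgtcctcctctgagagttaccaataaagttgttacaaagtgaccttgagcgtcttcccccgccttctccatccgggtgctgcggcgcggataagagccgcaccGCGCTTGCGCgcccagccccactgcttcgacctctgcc
Ndufb4 and Sdha hold 3 matches each, Uqcrc1 and Cox6a1 2 each and Atp5g3 1.

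Counting itself limits some members. Of the 83, 46 share at least 1 stretch of 50 exonic bases with another annotated gene, 31 of them with a processed pseudogene. Processed pseudogenes annotated as transcribed or translated, such as those matched by Cox6a1 and Atp5b, are not in the 31. Alignments that were not unique made up 15.5% to 18.1% of those counted. At least 50% of stretches were shared in 5 members: Atp5g2 (87.4%), Atp5l (84.8%), Cox7c (53.0%), Atp5h (50.5%) and Atp5o (50.3%, in part with a second annotated gene of the same symbol). Their levels, and the shares of the c-ring genes, are uncertain for that reason. Ndufs5, a complex I subunit, had 1 read over all 8 libraries while every other complex I member was at 27.1 CPM per kilobase or more. It shares 41.2% of its stretches with the processed pseudogene BC002163, which also had 1 read in all. Exons of 22 members overlap a gene on the opposite strand, 9 of them over at least 20% of their length, and without a stated strand setting such reads cannot be told apart.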

How the data were processed

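RNA of 8 prefrontal cortex samples was sequenced after poly(A) selection, per the labels. The deposited values are raw counts of reads per gene symbol, 1 table per library, which the authors made without normalization. Per the submitters' processing notes, bcl2fastq 2.17.1.14, TopHat2 2.1.1 and HTSeq 0.6.1 were used with mm10/GRCm38. Neither the annotation nor the strand setting is given in the sources used here. The summary lines of the tables, which name no gene, were left out. In the 7 tables that hold them, 48.0% to 49.3% of counted alignments fell on no feature.

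All genes were tested with edgeR 4.0.16 in R 4.3.3: filterByExpr, which left 14809 genes, scaling by the trimmed mean of M values, and a robust quasi-likelihood fit of all 8 libraries with a term per group, so that the groups share 1 estimate of spread (common biological coefficient of variation 9.33%). P-values were adjusted by Benjamini-Hochberg over all tested genes. The code was tested on simulated data. Log2 CPM used a prior count of 2. Lengths are unions of exons of RefSeq-matched transcripts in GENCODE, matched to the files by symbol and found for all 83 members.

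Members and gene lists were chosen with earlier results of these data known. Named members are, per complex and comparison, the 2 with the smallest p, the isoform families, complex II and the 2 highest and the lowest per length, and of each list genes among the 2 with the smallest p. Ndufs1, Ndufs4, Ndufb4, Atp5h, Ppargc1a and Nrf1 were named after their values were seen. Same-numbered replicates were checked for pairing. Alternatives were other scalings, filters, DESeq2 1.42.0, limma 3.58.1 with voom, the 2 groups alone, a replicate block and each library left out.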

Additional observations from a re-analysis of the deposited data

How the results depend on the processing

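The count of members that passed was 0 in each of the 3 comparisons and stayed 0 under all 16 alternatives, including DESeq2, limma with voom and each library left out, and no alternative moved a member past the threshold. Leaving out 1 library gave medians of 0.0012 to 0.08 in saline against wild type, -0.04 to -0.0040 in romidepsin against saline and -0.02 to 0.06 in romidepsin against wild type, where the lowest came without wild-type replicate 3. Members at an unadjusted p under 0.05 numbered 0 to 5 in saline against wild type when 1 library was left out, with 5 without wild-type replicate 1. They numbered 0 to 2 in romidepsin against saline. With all libraries, 8.39% and 3.26% of all tested genes were at that p by edgeR in these 2 comparisons. The shares of all tested genes with 1 library left out are not given, so these counts show no excess among the members. Of the 2 members with the smallest p per complex and comparison, 4 changed sign, none of them called. Sign changes of other named members were not counted here. With 1 library left out, Cox4i2 in romidepsin against saline ranged from -0.077 (without romidepsin replicate 1) to 1.05. In romidepsin against wild type, Sdhd ranged from -0.0065 (without wild-type replicate 3) to 0.11. In that comparison Sdhc ranged from -0.12 to 0.026 and Cox7c from -0.29 to 0.020, both highest without romidepsin replicate 2. Over all genes, the count that passed in saline against wild type was 1, but 31 with DESeq2, 12 without the filter and 54 without wild-type replicate 3; in romidepsin against wild type it was 1, and 0 to 4 under the alternatives; in romidepsin against saline it was 0, but 2 with DESeq2 and 3 without saline replicate 1 or romidepsin replicate 1 (483 at an unadjusted p under 0.05 in edgeR). The cause was not tested. Deviations of same-numbered libraries from their group means had correlations of -0.18 to 0.10, and saline replicate 1 with wild-type replicate 3 reached 0.24. With 2 or 3 libraries a group, these values cannot show whether the numbers pair libraries. With a replicate block 0 members passed and the medians were 0.05, -0.02 and 0.02. Their order is saline against wild type, romidepsin against saline and romidepsin against wild type. With 2 or 3 libraries a group, the width of the members' 95% intervals limits how small a fold can be told from none.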
